A study of Mus musculus with 18 samples.

Results

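Ferritin and iron handling genes were compared between mice of the inbred strains DBA/2J and C57BL/6J in whole brain, kidney and liver. The set held 10 genes of 15095 named genes on the arrays, measured by 14 of 21765 spots: the ferritin genes Ftl1, Ftl2-ps and Fth1, the transferrin gene Trf and its receptor gene Tfrc, the transporter genes Slc11a2 and Slc40a1, the haemochromatosis gene Hfe, and the iron regulatory protein genes Aco1 and Ireb2. Spots were taken by the gene symbol of the platform annotation, and all 10 genes were on the arrays. The set was chosen by the low strain ratios of Ftl1 and Ftl2-ps on these arrays, so those ratios are given as a description without a test. The other 8 genes were added for their function.

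The study made 18 two-colour hybridisations on glass arrays, 6 per tissue. Each array carried RNA of pooled DBA/2J mice against RNA of pooled C57BL/6J mice, with 10 mice to a pool for brain and kidney and 9 for liver. Both pools of a tissue were shared by its 6 arrays, so p-values here speak for repeated hybridisation and not for differences among mice. The dyes were never swapped, so at any spot a dye difference cannot be told apart from a strain difference, even where all arrays share a sign. The sources used here give no sex or age of the mice. All values are log2 ratios of DBA/2J over C57BL/6J after print-tip loess, a correction of each printed block of spots for intensity. The intensity used was 1 value per spot fitted over the 6 arrays of the tissue, not that of each array. The blocks were inferred from the order of the spots. Errors are SDs over 6 arrays. That positive means higher in DBA/2J is likely and not stated. It rests on the order of dyes and channels, and Glo1, a gene duplicated in DBA/2J, stood at 0.64 ± 0.13 in brain, 0.80 ± 0.34 in kidney and 0.93 ± 0.15 in liver, while Hc, whose DBA/2J allele is defective, stood at -1.07 ± 0.48 in liver.

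The tissue labels fitted the spot brightness of marker genes. The median intensity percentile of 8 hepatocyte markers was 99.7 in liver against 58.7 in brain and 36.2 in kidney. For 7 proximal tubule markers it was 97.7 in kidney, and for 6 neuronal markers 91.0 in brain. Arrays of a tissue agreed least in brain, with a mean correlation across spots of 0.382, against 0.627 in kidney and 0.473 in liver. Brain array 1 (0.240) and liver array 2 had the lowest agreement with the others of their tissue, and liver array 2 also had the lowest median log2 intensity, 7.12. In RNA of whole tissue, fewer cells of a type and less RNA per cell cannot be told apart.

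Ferritin stores iron in a hollow shell built of light chains, encoded by Ftl1, and heavy chains, encoded by Fth1, the latter carrying the ferroxidase site. Iron travels in blood on transferrin, enters cells through the transferrin receptor, reaches the cytosol through Slc11a2 (DMT1) and leaves through Slc40a1 (ferroportin), which the liver hormone hepcidin degrades. When iron is scarce, the iron regulatory proteins bind hairpins in ferritin messages and block their translation, and bind hairpins in the transferrin receptor message and stabilise it.

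The stretches of 250 bases before the transcription start of Ftl1 and Fth1 are shown because the ferritin chain genes differed in strain ratio on these arrays. They come from RefSeq, assembly GRCm38.p6, which is the C57BL/6J genome, and no DBA/2J sequence was used. Capitals mark GC boxes (GGGCGG) and CCAAT boxes (CCAAT) found on either strand. The Ftl1 stretch is chr7:45459887-45460136 on the minus strand, and that of the second listed Fth1 start is chr19:9982396-9982645 on the plus strand.
Ftl1: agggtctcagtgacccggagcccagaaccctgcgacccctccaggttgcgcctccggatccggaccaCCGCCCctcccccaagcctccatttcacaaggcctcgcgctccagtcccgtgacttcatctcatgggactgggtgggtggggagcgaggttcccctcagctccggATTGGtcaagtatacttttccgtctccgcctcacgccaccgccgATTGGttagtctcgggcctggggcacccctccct
Fth1: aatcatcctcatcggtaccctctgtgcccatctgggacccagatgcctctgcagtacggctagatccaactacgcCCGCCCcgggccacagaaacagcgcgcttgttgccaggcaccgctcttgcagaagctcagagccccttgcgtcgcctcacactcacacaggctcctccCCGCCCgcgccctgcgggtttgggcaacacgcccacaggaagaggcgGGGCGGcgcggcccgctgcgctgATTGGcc

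Ftl1 held 1 GC box, 183 bases before the start, and 2 CCAAT boxes on the reverse strand, 78 and 34 bases before it. The stretch of the second Fth1 start held 3 GC boxes, 175, 77 and 30 bases before the start, and 1 CCAAT box 7 bases before it. That of the first listed Fth1 start, not shown, held 0 GC boxes, 0 CCAAT boxes and 1 match to the TATA box letters (TATAAA, 12.4% of all stretches). The match lay on the reverse strand, 124 bases before the start. Among all 32851 mouse promoter stretches of this length, 32.7% held a GC box and 33.8% a CCAAT box. Promoter stretches were found for 6 of the 10 genes, 8 in all. The core of the antioxidant response element (TGACNNNGC, 10.2% of all stretches) was matched only in Hfe, 67 bases before the start. Only the 250 bases before each start were searched for it, so an element farther off would be missed. The loop letters of the iron-responsive element (CAGTGN) were searched in the 50 bases after each start, where 13.2% of all stretches held them and none of the 8 did. That search took matches on either strand and covered no other part of a message. It therefore cannot show whether any of these messages carries the element.

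Ftl1, the light chain gene, had lower values in DBA/2J on each of the 18 arrays. Its log2 ratio ran from -2.27 to -0.49 in brain with a median of -1.26. In kidney it ran from -3.13 to -1.40 with a median of -2.18, and in liver from -3.99 to -0.27 with a median of -1.88. The means were -1.30 ± 0.65 in brain (2.46-fold lower), -2.26 ± 0.59 in kidney (4.78-fold) and -2.12 ± 1.29 in liver (4.36-fold). In liver no named gene had a lower mean than Ftl1, and 2 named genes did in kidney and 7 in brain. The liver values spread most: array 2, the dim one, lay nearest to 0, and array 6 lay lowest. Without array 2 the liver mean was -2.49. The deposited ratio of liver array 6 reduces to 252 for DBA/2J against 7351 for C57BL/6J, a 29.2-fold gap before normalisation. With only the array median subtracted and no loess, the kidney mean of Ftl1 was -1.44.

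Ftl2-ps, annotated as a pseudogene of the light chain, also lay below 0 on each of the 18 arrays. Its ratio had a median of -0.79 in brain (-1.36 to -0.09), -2.33 in kidney (-2.47 to -1.62) and -1.64 in liver (-1.90 to -0.48). The means were -0.76 ± 0.46 in brain (1.69-fold lower), -2.18 ± 0.35 in kidney (4.52-fold) and -1.45 ± 0.54 in liver (2.73-fold). As for Ftl1, liver array 2 lay nearest to 0 among the liver arrays. Over the 18 arrays the ratios of Ftl1 and Ftl2-ps had a Pearson's r of 0.42, a description over arrays that share pools and tissue. Each of these genes had 1 spot, in different blocks as inferred from spot order. Light chain genes and pseudogenes are so close in sequence that which copy a spot measured is uncertain. Both spots were brighter relative to the rest of the array in liver: Ftl1 at percentile 99.5 against 91.8 in brain and 96.3 in kidney, Ftl2-ps at 97.5 against 77.1 and 92.1.

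**Figure D1:**
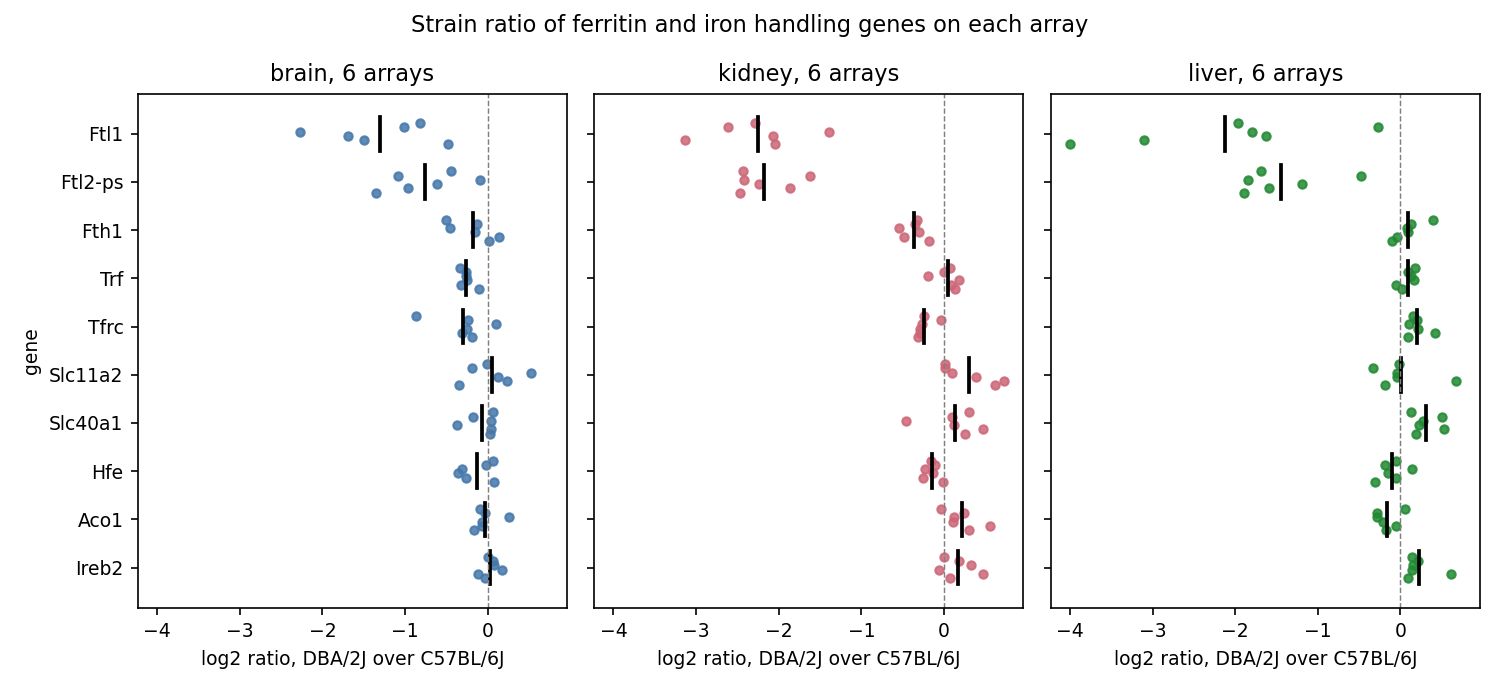
Log2 ratio of DBA/2J over C57BL/6J (x axis) of the 10 genes (y axis) on each array of brain, kidney and liver; each point is 1 array, each bar the mean of 6, the dashed line 0. Ftl1 and Ftl2-ps lie below 0 on every array of each tissue, down to -3.99 for Ftl1 in liver, while the means of the other 8 genes lie between -0.37 and 0.31.

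Fth1, the heavy chain gene, differed much less. In kidney its ratio ran from -0.55 to -0.19 with a median of -0.34, below 0 on all 6 arrays, and the mean was -0.37 ± 0.13 (1.29-fold lower; limma adjusted p = 0.000893). That call depended on the loess step, because with only the array median subtracted the mean was 0.54, higher in DBA/2J. In brain the ratio ran from -0.51 to 0.14 (mean -0.18 ± 0.26, limma adjusted p = 0.208), and in liver from -0.11 to 0.39 (0.09 ± 0.17, limma adjusted p = 0.398). In both tissues the arrays lay on both sides of 0. No Fth1 array of any tissue reached the mean of Ftl1 in that tissue. The Fth1 spot stood at intensity percentile 99.5 in brain, 99.9 in kidney and 99.5 in liver. It was therefore absent from the fits that left out the highest percentile of intensity.

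**Figure D2:**
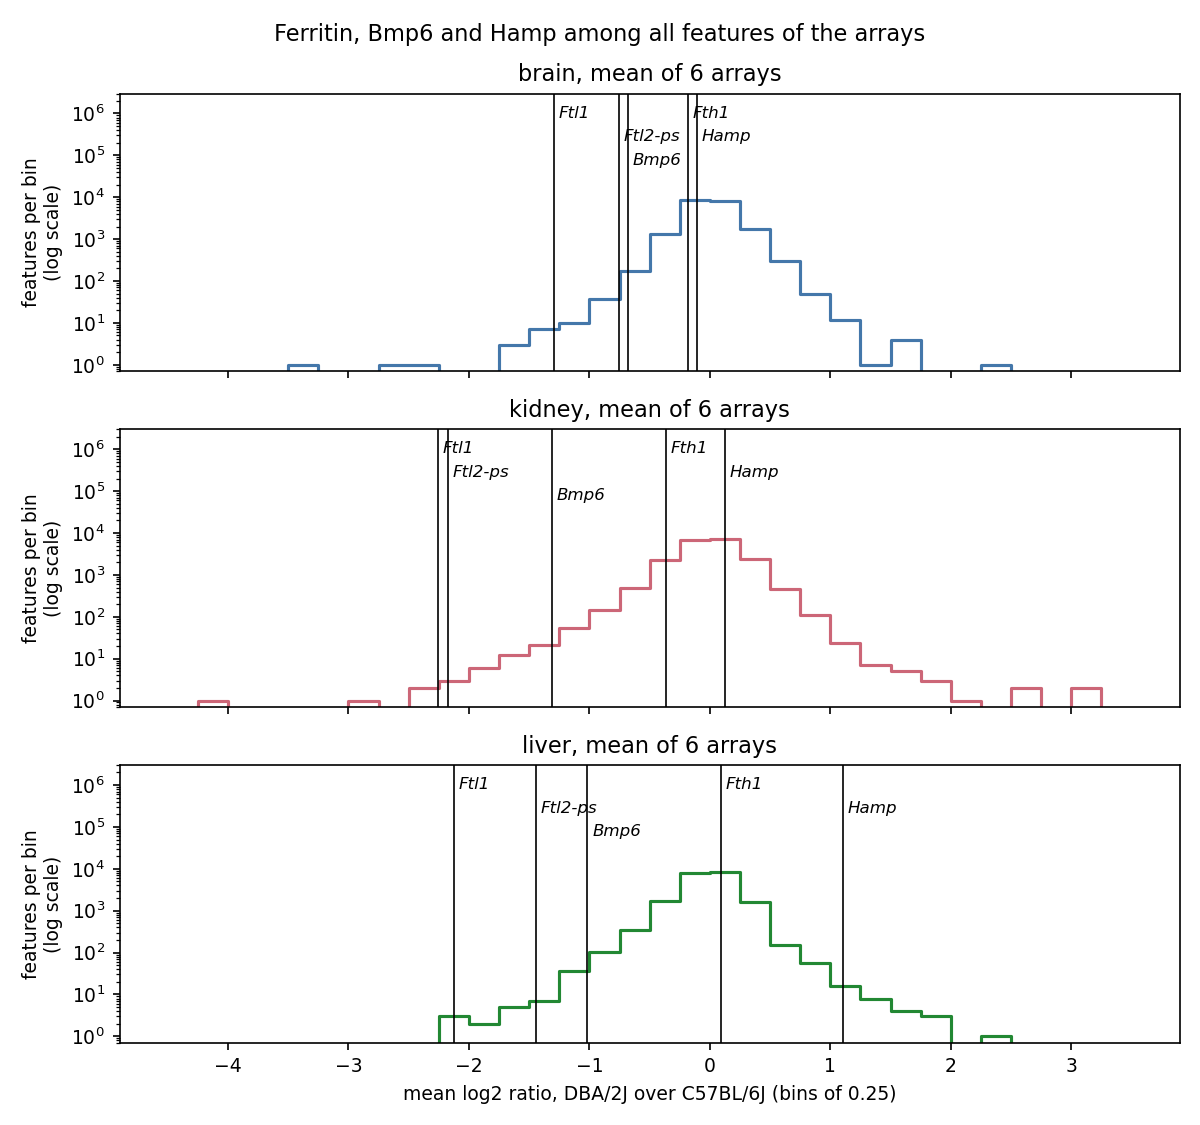
Number of features (y axis, log scale) by mean log2 ratio of DBA/2J over C57BL/6J (x axis, bins of 0.25) in brain, kidney and liver, over 20218 features; vertical lines mark the means of Ftl1, Ftl2-ps, Fth1, Bmp6 and Hamp. Ftl1 lies in the sparse left tail in each tissue (-1.30, -2.26 and -2.12), Fth1 lies near the centre, and Hamp lies in the right tail in liver alone (1.10).

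The 8 genes added for their function were counted apart from the light chain genes, whose values in these tissues chose them. A gene counts as called where limma's adjusted p over all 20218 features is under 0.05. In brain 1 of the 8 was called, with 0 higher and 1 lower in DBA/2J, where 13.6% of all features were called. At an unadjusted p under 0.05 limma gave 0 higher and 2 lower there. In kidney 4 of the 8 were called, 2 higher and 2 lower, against 39.6% of all features. In liver 1 was called higher and 0 lower, against 22.9%, with 3 higher and 1 lower at an unadjusted p under 0.05 by limma. No difference of these shares from those of all features was tested. The median of the 8 means was -0.10 in brain and 0.09 in both kidney and liver, beside 0.00 over all features in each tissue.

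Trf, which encodes the carrier of iron in blood, was lower in DBA/2J brain. The 6 brain ratios ran from -0.33 to -0.10 with a median of -0.26, all below 0. The mean was -0.26 ± 0.08 (1.19-fold lower; limma adjusted p = 0.0277). The call was not stable: it was lost without brain array 2, 3, 4 or 5 (means of -0.26, -0.25, -0.26 and -0.24), with loess over the whole array (-0.24) and without loess (-0.10). In kidney Trf stood at 0.05 ± 0.13 and in liver at 0.09 ± 0.09, neither past the threshold (limma adjusted p = 0.622 and 0.341).

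Trf was measured by 4 spots. In brain their means were -0.28, -0.13, -0.31 and -0.30, all below 0. In liver they ran from -0.02 to 0.20, and in kidney from -0.07 to 0.14. The spots also followed the tissues alike: the gene stood at intensity percentile 99.8 in liver, the main source of plasma transferrin, against 88.9 in brain and 53.9 in kidney. Oligodendrocytes are the main Trf expressing cells of the brain. Of 9 listed markers 8 were measured, and 0 were higher and 2 lower in DBA/2J brain by limma, Mal (-0.48 ± 0.09) and Mbp (-0.25 ± 0.06), with 0 higher and 5 lower at an unadjusted p under 0.05. Over all features 7.3% were higher and 6.25% lower in brain. The median over the 8 was -0.20 and their means ran from -0.48 to 0.01. Of 5 measured choroid plexus markers, another Trf expressing tissue, 0 were called in brain by limma and 0 at an unadjusted p under 0.05. The part of these cells in the Trf ratio was not tested.

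Tfrc, the receptor that takes up transferrin, was lower in DBA/2J kidney. Its kidney ratios ran from -0.31 to -0.04 with a median of -0.28, all below 0, and the mean was -0.24 ± 0.10 (1.18-fold lower; limma adjusted p = 0.00951). With loess over the whole array the kidney mean was -0.07 and without loess 0.12, and neither passed. In liver all 6 arrays lay above 0, from 0.09 to 0.42 with a median of 0.18. The liver mean of 0.20 ± 0.12 just missed the threshold (limma adjusted p = 0.0514), and passed it under 5 of the other settings. In brain the ratio ran from -0.86 to 0.10 (mean -0.30 ± 0.31, limma adjusted p = 0.0784).

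The 2 spots of Tfrc differed in brain. One had a mean of -0.58 ± 0.58, with -1.75 on array 1 and the other 5 arrays between -0.49 and -0.24. The other spot had a mean of -0.01 ± 0.30. In kidney their means were -0.31 and -0.17, and in liver 0.28 and 0.11. The first spot stood at intensity percentile 93.0 in liver against 34.0 in brain and 60.7 in kidney, while the second stood at 61.1, 73.1 and 71.1. The pair thus disagreed over where Tfrc signal was brightest, and which of them follows the receptor message is uncertain.

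**Figure D3:**
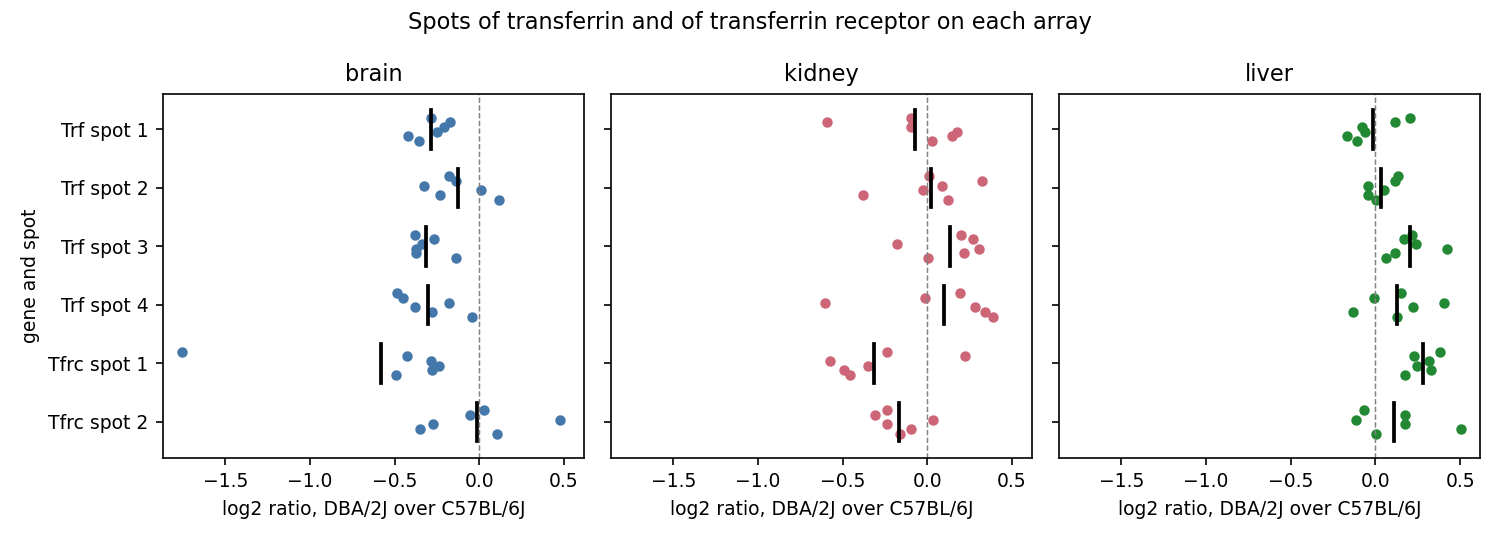
Log2 ratio of DBA/2J over C57BL/6J (x axis) of the 4 spots of Trf and the 2 spots of Tfrc (y axis) on each array of brain, kidney and liver; points are arrays, bars are means of 6, the dashed line is 0. All 4 Trf spots have brain means below 0, from -0.31 to -0.13, and the first Tfrc spot has 1 brain array at -1.75.

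The transporters moved upward where they were called. Slc11a2, the importer of ferrous iron, had kidney ratios from 0.01 to 0.72 with a median of 0.24, all above 0. Its kidney mean was 0.31 ± 0.31 (1.24-fold higher; limma adjusted p = 0.0236). The call rested on arrays 4, 5 and 6, the higher 3 of the 6: without each in turn the mean was 0.29, 0.22 or 0.25 and did not pass. In brain (0.06 ± 0.31) and liver (0.01 ± 0.35) Slc11a2 lay on both sides of 0.

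Slc40a1, the exporter of iron, had liver ratios from 0.13 to 0.53 with a median of 0.25, all above 0. Its liver mean was 0.31 ± 0.17 (1.24-fold higher; limma adjusted p = 0.0117), and it stayed past the threshold in all 6 fits that left out 1 array. In kidney its mean was 0.13 ± 0.32 (limma adjusted p = 0.311). Kidney array 3 lay at -0.45 and the rest above 0, and without it the mean passed at 0.25. In brain it stood at -0.06 ± 0.17. The spot was brighter in liver (percentile 75.7) and kidney (69.3) than in brain (40.9).

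Hfe, whose product joins the transferrin receptor and takes part in hepcidin control, passed the threshold in no tissue by limma. Its brain mean was -0.13 ± 0.20, its kidney mean -0.15 ± 0.08 and its liver mean -0.10 ± 0.15, with limma adjusted p of 0.297, 0.0726 and 0.334. In kidney all 6 arrays lay below 0, from -0.25 to -0.02. The Hfe spot stood at intensity percentile 24.1 in brain, 20.6 in kidney and 57.5 in liver. Kidney Hfe passed at -0.67 without loess and at -0.24 where intensity was left unrestored.

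The iron regulatory proteins sense iron, Aco1 by its iron-sulfur cluster and Ireb2 by its own turnover. Aco1 had kidney ratios from -0.04 to 0.56 with a median of 0.19, and a mean of 0.22 ± 0.20 (1.16-fold higher; limma adjusted p = 0.0409). This call ended without kidney array 2, 4, 5 or 6 (means of 0.21, 0.24, 0.15 and 0.20). The kidney sign itself turned with the processing, at -0.38 without loess, -0.02 with intensity left unrestored and 0.06 with loess over the whole array. Aco1 stood at -0.03 ± 0.14 in brain and -0.16 ± 0.14 in liver, not past the threshold. Its spot was dim, at intensity percentile 12.7 in brain, 21.4 in kidney and 27.6 in liver. Ireb2 stood at 0.03 ± 0.10 in brain, 0.17 ± 0.20 in kidney and 0.22 ± 0.20 in liver, and did not pass (limma adjusted p = 0.821, 0.108 and 0.0589). In liver its 6 arrays lay above 0, from 0.09 to 0.61, with array 5 apart from the rest.

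**Figure D4:**
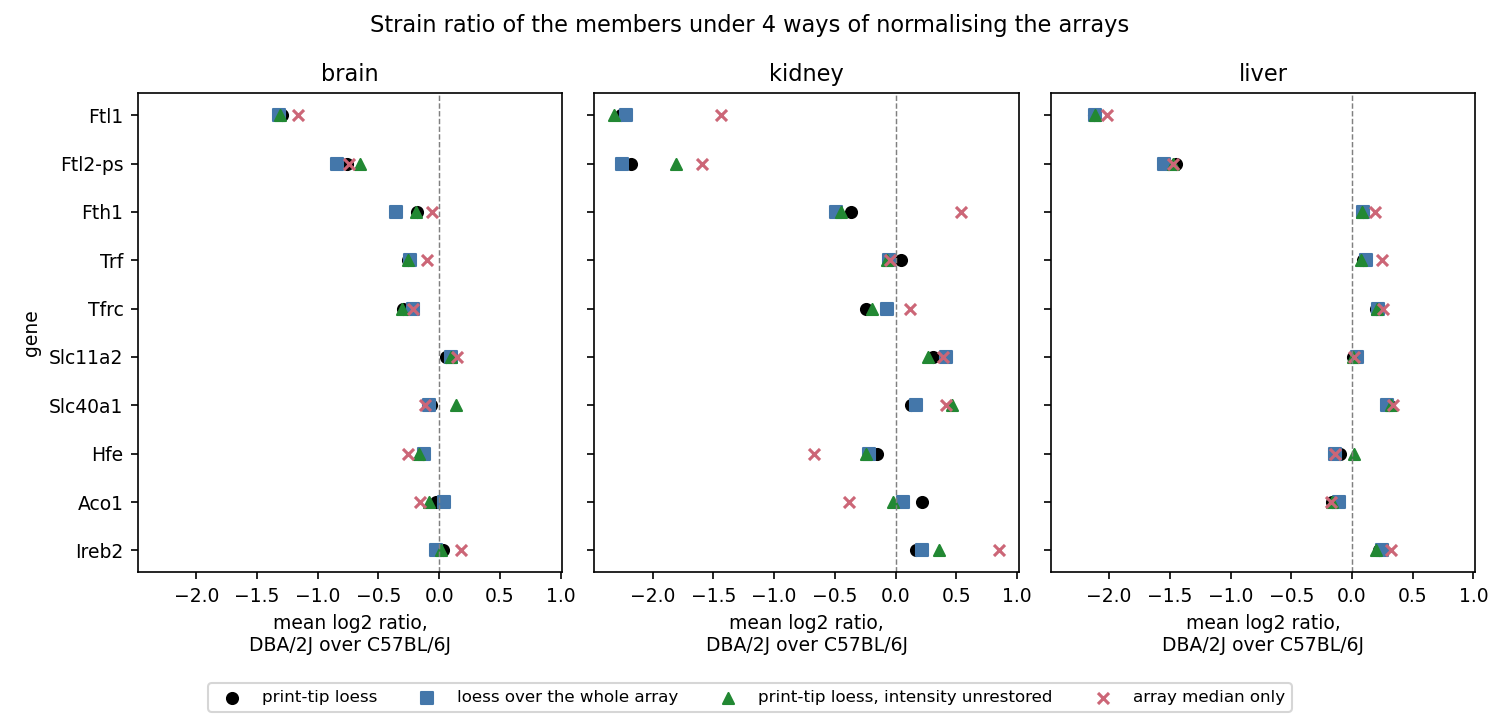
Mean log2 ratio of DBA/2J over C57BL/6J (x axis) of the 10 genes (y axis) in brain, kidney and liver under 4 ways of normalising the arrays, 1 symbol each; the dashed line is 0. Ftl1 and Ftl2-ps lie below 0 under each of the 4, whereas Fth1 in kidney moves from -0.37 to 0.54 and Aco1 in kidney from 0.22 to -0.38 when only the array median is subtracted.

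Strain ratios were then compared between tissues in 1 limma fit of the 18 arrays, for the 8 genes that were added for their function. Between brain and kidney 1 of 8 genes differed, where 22.5% of all features did. Between brain and liver 2 of 8 differed (7.68% of all features), and between kidney and liver 3 of 8 (17.7%). Trf was lower in brain than in kidney by a difference of -0.30 (SE 0.086, limma adjusted p = 0.0146) and than in liver by -0.34 (SE 0.086, limma adjusted p = 0.0132). Tfrc was lower in brain than in liver by -0.49 (SE 0.12, limma adjusted p = 0.00876) and lower in kidney than in liver by -0.44 (limma adjusted p = 0.0103). Its 6 kidney arrays lay below 0 and its 6 liver arrays above. The gap between brain and liver lay mostly in 1 of its spots. The first spot stood at -0.58 in brain and 0.28 in liver, the second at -0.01 and 0.11. No fit used the second spot alone.

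Fth1 was lower in kidney than in liver by -0.46 (SE 0.11, limma adjusted p = 0.00608), and Aco1 was higher in kidney than in liver by 0.38 (SE 0.10, limma adjusted p = 0.0124). Both turned without loess, to 0.35 and -0.21. All 6 differences passed in each fit that left out 1 array, but not under every other setting. Without loess those of Trf (-0.058 for brain minus kidney, -0.35 for brain minus liver) and of Tfrc (-0.47 between brain and liver, -0.13 between kidney and liver) no longer passed. The same 4 were lost with loess over the whole array, at -0.19, -0.35, -0.43 and -0.28, and Aco1 with them (0.17). With intensity left unrestored, Aco1 (0.14) and the Trf difference between brain and kidney (-0.18) were lost, and with the brightest spot of each gene that between brain and liver (-0.43). The Ftl1 ratio was lower in kidney and liver than in brain by 0.96 and 0.83, with an SE of 0.41 for each. That of Ftl2-ps was lower in kidney than in brain by 1.42 (SE 0.22), and lower in liver than in brain by 0.69 with the same SE. These ferritin differences are given as a description.

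Other genes of iron handling were taken from a list of 92 genes by role, of which 74 were on the arrays. In brain 4 were higher and 3 lower in DBA/2J, in kidney 12 higher and 14 lower, and in liver 8 higher and 10 lower. The rest, 67, 48 and 56 genes, did not pass. The split moved with the scaling. Without loess it was 6 higher and 7 lower in brain and 31 and 14 in kidney. Of all features 17.5% in brain and 64.9% in kidney were then called. With loess over the whole array it was 2 and 6 in brain (14.6% of all features called). With intensity left unrestored it was 22 and 15 in kidney (51.8%) and 9 and 7 in liver (23%). In the fit used throughout, 7.3% of all features were higher and 6.25% lower in brain. The shares were 19.9% and 19.8% for kidney, and 10.7% and 12.1% for liver. The medians of the 74 means were 0.01 in brain, -0.04 in kidney and -0.01 in liver, beside 0.00 over all features.

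Hepcidin and its control held the widest ratios of the list. Bmp6, a ligand that drives hepcidin transcription when iron is plentiful, was lower in DBA/2J in each tissue. Its ratio ran from -1.02 to -0.12 in brain (median -0.75), from -1.58 to -1.01 in kidney (median -1.36) and from -1.39 to -0.81 in liver (median -0.98), below 0 on all 18 arrays. The means were -0.68 ± 0.36 in brain (1.60-fold lower; limma adjusted p = 0.00354), -1.31 ± 0.19 in kidney (2.49-fold; 8.00e-08) and -1.02 ± 0.20 in liver (2.02-fold; 1.46e-05). Bmp6 passed in all 18 fits that left out 1 array, and its sign was the same under the other settings run on normalised values. Its spot stood at intensity percentile 23.1 in brain, 67.2 in kidney and 33.1 in liver.

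Hamp, the hepcidin gene, was higher in DBA/2J liver. Its liver ratio ran from 0.17 to 1.82 with a median of 1.13, above 0 on all 6 arrays. The mean was 1.10 ± 0.56 (2.15-fold higher; limma adjusted p = 0.000736), and it lay between 0.96 and 1.29 when 1 array was left out. In brain (-0.11 ± 0.09) and kidney (0.12 ± 0.15) Hamp did not pass. The Hamp spot stood at percentile 99.5 in liver, where hepcidin is made, against 65.9 in brain and 75.6 in kidney. Hamp has a close copy, Hamp2, which was not on the arrays by name, so which of the pair the spot measured is uncertain.

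Besides Hamp and Bmp6, 14 genes of hepcidin control were measured. In kidney 1 was higher and 4 were lower, where 39.6% of all features were called, and in liver 1 was higher and 2 were lower, against 22.9%. In brain limma called 0, with 1 higher and 1 lower at an unadjusted p under 0.05. Id1, a target gene of BMP signalling, was higher in kidney at 0.73 ± 0.12 (1.66-fold; limma adjusted p = 4.14e-06) and stood at 0.13 ± 0.26 in liver, where it did not pass. The BMP receptor gene Acvr1 was lower in kidney (-0.21 ± 0.16) and liver (-0.24 ± 0.07), and Smad1, a transducer of the signal, was lower in liver (-0.28 ± 0.10). Tmprss6, a protease that restrains hepcidin, and Hjv, a BMP co-receptor, did not pass in any tissue by limma, with liver means of 0.11 ± 0.19 and 0.00 ± 0.10.

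**Figure D5:**
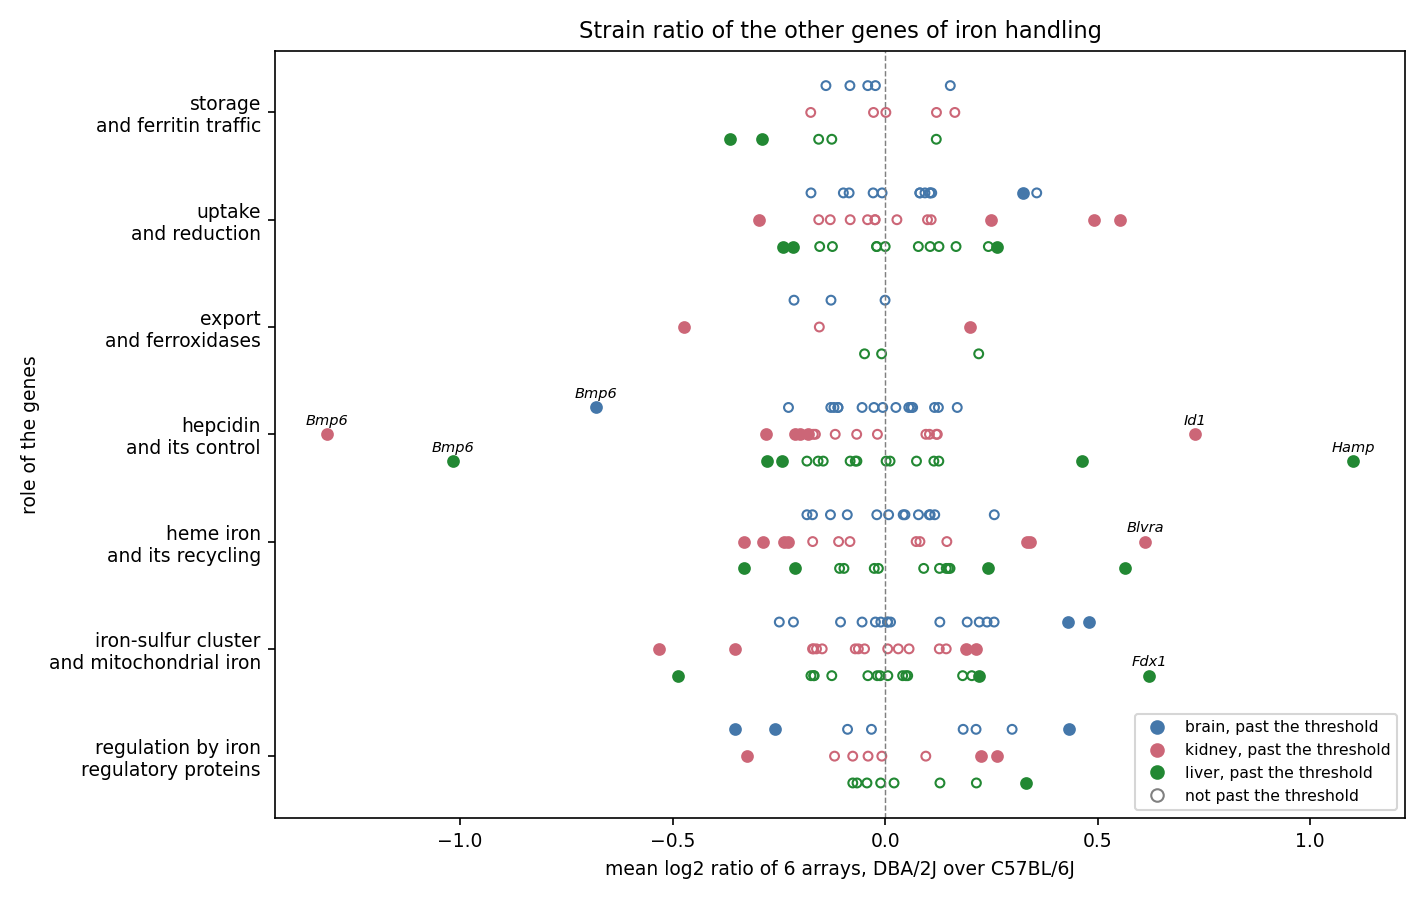
Mean log2 ratio of DBA/2J over C57BL/6J over 6 arrays (x axis) of the 74 other genes of iron handling, by role (y axis), in brain, kidney and liver; each point is 1 gene in 1 tissue, filled where limma's adjusted p is under 0.05. Bmp6 lies apart on the left in each tissue (-0.68, -1.31 and -1.02) and Hamp on the right in liver (1.10), while most genes lie within 0.5 of 0.

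For the counts that follow, limma called 13.6% of all features in brain, 39.6% in kidney and 22.9% in liver. Among genes of storage and ferritin traffic, 2 of 5 measured were called in liver, both lower, and 0 of 5 in brain and kidney by limma (0 and 1 at an unadjusted p under 0.05). Pcbp1, a chaperone that delivers iron to ferritin, was lower in liver at -0.36 ± 0.18 (limma adjusted p = 0.00577), and Ncoa4, the receptor that takes ferritin to lysosomes, at -0.29 ± 0.17 (limma adjusted p = 0.0157). Of 13 genes of uptake and reduction, 1 was called in brain, 4 in kidney (3 higher, 1 lower) and 3 in liver (1 higher, 2 lower). Ltf, an iron-binding protein of secretions, was higher in kidney at 0.55 ± 0.35, though at 0.02 without loess. The ferric reductase gene Steap4 was higher in kidney (0.49 ± 0.06) and lower in liver (-0.24 ± 0.17). Both spots were dim in kidney, Ltf at intensity percentile 17.9 and Steap4 at 11.4. Among 3 genes of export and ferroxidases, Heph, which oxidises exported iron, was lower in kidney at -0.47 ± 0.10 (limma adjusted p = 9.84e-05), Atp7b was higher there at 0.20 ± 0.19, and Cp, the plasma ferroxidase, passed in no tissue by limma.

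Of 13 genes of heme iron, 7 were called in kidney (3 higher, 4 lower), where 39.6% of all features were, and 4 in liver (2 higher, 2 lower), against 22.9%. In brain limma called 0, against 13.6%, with 1 higher and 1 lower at an unadjusted p under 0.05. Blvra, which reduces biliverdin, was higher in kidney (0.61 ± 0.23) and liver (0.24 ± 0.10). The heme oxygenase gene Hmox1 was lower in kidney (-0.24 ± 0.08). Slc46a1, a folate and heme transporter, was higher in liver at 0.56 ± 0.50 with array 2 at 1.51, and at 0.38 without that array.

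Genes of iron-sulfur clusters and mitochondrial iron were called for 2 of 16 in brain, both higher, 4 in kidney (2 each way) and 3 in liver (2 higher, 1 lower). The ferredoxin gene Fdx1 was higher in brain (0.48 ± 0.33) and liver (0.62 ± 0.20), and Mms19 in brain (0.43 ± 0.37). The Fdx1 spot stood at intensity percentile 15.1 in brain and 94.2 in liver. Nfu1 was lower in kidney (-0.53 ± 0.17) and the scaffold gene Iscu in liver (-0.49 ± 0.23). Of 8 genes tied to the iron regulatory proteins, brain and kidney each had 3 calls and liver 1. The ubiquitin ligase gene Skp1 was lower in brain (-0.35 ± 0.20) and kidney (-0.32 ± 0.06), Rbx1 was higher in brain (0.43 ± 0.31), and Epas1, whose message carries an iron-responsive element, was lower in brain (-0.26 ± 0.13) and higher in kidney (0.23 ± 0.15). The brain calls of Mms19 and Epas1 ended without most single arrays and with loess over the whole array. That of Rbx1 ended without array 2, 5 or 6 (0.39, 0.40 and 0.35), and that of Skp1 without array 2 or 4 (-0.32 and -0.34).

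Blood and macrophages carry iron genes of their own, so their markers were read beside these ratios. Of 12 listed red cell genes 4 were measured. The alpha globin gene Hba-a1 was lower in DBA/2J brain (-0.55 ± 0.40) and kidney (-0.65 ± 0.26) and stood at -0.08 ± 0.21 in liver, and Slc4a1 was lower in kidney (-0.47 ± 0.16) and liver (-0.35 ± 0.18). The 4 means ran from -0.55 to -0.01 in brain, from -0.65 to 0.00 in kidney and from -0.35 to 0.21 in liver. Of 14 macrophage genes 12 were measured, and limma called 0 in brain, 3 in kidney (1 higher, 2 lower, Cd14 the lowest at -1.20 ± 0.43) and 0 in liver. Over all features the shares called were 13.6%, 39.6% and 22.9%. At an unadjusted p under 0.05 by limma, 1 macrophage gene was higher and 1 lower in brain, and 0 were higher and 5 lower in liver. Their medians were -0.04, -0.06 and -0.13. The part of blood or macrophages in the ferritin and iron ratios was not tested.

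The 5 named genes whose ratios followed Ftl1 most closely over the 18 arrays, by Pearson's r, were Commd7 (0.82), Il10 (0.79), 4930554C24Rik (0.77), Uchl3 (0.76) and Ott (0.74). None of them shared its printed block, as inferred from spot order. The points share pools, tissue and array, and these are the highest of 15095 genes, so the values are a description only. The ratios of the 5 were far smaller than that of Ftl1: Commd7 stood at -0.01 ± 0.10 in brain, -0.23 ± 0.13 in kidney and -0.38 ± 0.30 in liver. Among the set, r with Ftl1 was 0.42 for Ftl2-ps, 0.37 for Hfe, 0.20 for Fth1, and negative for the other 6, down to -0.51 for Slc11a2.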

How the data were processed

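RNA of 18 two-colour glass arrays was analysed, 6 per tissue. The deposited values are log2 ratios of 23040 spots. Per the labels, the authors quantified the spots in Spot and applied print-tip lowess in limma. Their versions and any background correction are not named in the sources used here. The values did not look normalised: 100% were log2 ratios of 2 whole numbers (tolerance 1e-12), and array medians ran from -1.65 to 0.16. They were therefore treated as ratios of raw intensities, as allowed for in the planned design. Whole numbers up to 65535 were recovered by continued fractions, and the common factor was chosen per spot with an assumed SD of 0.4 between arrays. Ratios were normalised by print-tip loess (span 0.3, 4 iterations, 48 blocks of 480 spots). Each array was fitted against the spot's intensity over all arrays of its tissue, where standard print-tip loess takes the array's own. This block layout was inferred from the order of the spots. Spots at 0 on every array (1275) were left out.

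Of 21765 spots 16642 had 1 gene symbol, 134 several and 4989 none, and 15964 were matched to RefSeq (GRCm38.p6) by Entrez identifier. Spots of 1 symbol were averaged, giving 20218 features. Each tissue's mean was tested against 0 with limma 3.58.1 (R 4.3.3, lmFit and eBayes). P-values were adjusted by Benjamini-Hochberg across the 20218 features, and the threshold was 0.05. Tissues were compared by contrasts in 1 fit. The steps were tested on simulated data. Members and lists were chosen with earlier results of these data known. Named beside the members were, per tissue, up to 3 called list genes with the highest and 3 with the lowest mean, and the 5 genes most like Ftl1; Glo1, Hc, Ncoa4, Steap4, Atp7b, Cp, Acvr1, Smad1, Tmprss6, Hjv, Hmox1 and the cell markers were named after their values were seen. The labels do not say that a replicate number is shared between tissues, and the fit used throughout did not pair by it. Same-numbered deviations correlated from -0.23 to 0.16 over 18 pairs, 2 of them over 0.1.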

Additional observations from a re-analysis of the deposited data

Results flagged for a closer look

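Each group of 6 arrays was searched for a highest or lowest value far from the rest. Of 66 groups 10 held one, where chance gives about 1 in 20. Liver array 5 stood high for Tfrc (0.42, the others 0.09 to 0.21), Slc11a2 (0.68, the others -0.33 to -0.01) and Ireb2 (0.61, the others 0.09 to 0.21). Liver array 2 stood high for Slc46a1 (1.51, the others 0.15 to 0.61) and low for Bmp6 (-1.39, the others -1.02 to -0.81). Kidney array 2 stood nearest to 0 for Tfrc (-0.043, the others -0.31 to -0.24) and low for 1 spot of Trf (-0.59, the others -0.10 to 0.17). In brain, array 6 stood nearest to 0 for Trf (-0.10, the others -0.33 to -0.25), array 3 stood high for Aco1 (0.25, the others -0.16 to -0.03), and array 1 stood low for 1 spot of Tfrc (-1.75, the others -0.49 to -0.24).

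The strain ratio differed between tissues by limma for Trf (brain minus kidney -0.30, brain minus liver -0.34), Tfrc (brain minus liver -0.49, kidney minus liver -0.44), Fth1 (kidney minus liver -0.46) and Aco1 (kidney minus liver 0.38). The Tfrc spots parted between brain and liver, with the first at -0.58 and 0.28 and the second at -0.01 and 0.11.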

How the results depend on the processing

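Ftl1 and Ftl2-ps stayed below 0 in each tissue under every setting that kept them and without any 1 array. Leaving out 1 array put Ftl1 between -2.49 and -1.75 in liver. At intensity percentile 99.5 there, Ftl1 was absent from the liver fit that left out the highest percentile of intensity. The smaller ratios leaned on the normalisation. With only the array median subtracted and no loess, kidney values turned for Fth1 (0.54), Trf (-0.044), Tfrc (0.12) and Aco1 (-0.38), and the kidney minus liver differences for Fth1 (0.35) and Aco1 (-0.21). Called genes of the wider list then numbered 13 in brain and 45 in kidney. Of all 10 members, the light chain genes included, 5 were then called in liver (3 higher, 2 lower), against 3 in the fit used throughout. Of all features 17.5% in brain, 64.9% in kidney and 24.9% in liver were called without loess. Differing members, among the 8 genes added for their function, then numbered 4 between brain and kidney and 0 between brain and liver (3 at an unadjusted p under 0.05 in limma). With loess over the whole array, brain Aco1 (0.038) and Ireb2 (-0.026) and kidney Trf (-0.052) turned. The wider list then gave 17 called genes in kidney, where 31.9% of all features were called. Differing members numbered 0 between brain and kidney (0 also at an unadjusted p under 0.05 in limma), 1 between brain and liver and 1 between kidney and liver. With intensity left unrestored, brain Slc40a1 (0.14), kidney Trf (-0.070) and Aco1 (-0.024) and liver Hfe (0.014) turned. The brightest spot of each gene gave 1 differing member between brain and liver. The share of all features that differed between tissues was taken only for the fit used throughout. These counts of differing members therefore cannot be set against the array as a whole. The cause of these changes was not tested.

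The deposited values, which are centred below 0 on 17 of 18 arrays, turned Fdx1 (-0.56), Rbx1 (-0.38) and Mms19 (-0.48) in brain, Fth1 (0.056), Slc11a2 (-0.093), Aco1 (-0.86), Blvra (-0.15) and Ltf (-0.47) in kidney, and Slc40a1 (-0.77), Fdx1 (-0.35) and Slc46a1 (-0.44) in liver. Leaving out 1 array turned Slc11a2 in brain (from -0.038 without array 3 to 0.14) and liver (from -0.12 without array 5 to 0.079). It gave 3 to 13 called genes of the wider list in brain, 10 to 19 in liver and 1 to 2 differing members between brain and kidney. The low ends came in brain without array 2, 4, 5 or 6 (3 each) and in liver without array 3 (10). The high end in brain came without array 1. In these fits 6.34% to 16.4% of all features were called in brain, and 14.7% to 22.7% in liver. The share that differed between tissues was not taken in them or in the fit with a replicate block. With the replicate number as a block, differing members stayed at 1, 2 and 3. The labels do not say that a number is shared between tissues. In 6 of 18 comparisons an array correlated best with its own number in the other tissue. The 6 arrays per tissue, of 1 pair of pools and 1 dye orientation, limit what can be read from any ratio.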
